A study of Mus musculus with 6 samples.

Results

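The 36 genes described here belong to the integrated stress response and to the amino acid supply that it controls. They were taken from a list of the pathway's factors, kinases, transporters and enzymes by their gene symbols. A gene counted as measured where a row of the arrays is annotated with its symbol alone. That held for 34 of the 36 genes, out of 30102 genes measured in all; Eif2s1 and Pycr1 were not analysed here. The rule itself uses symbols and no measured value.

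The arrays measured total RNA of bone marrow-derived mast cells (BMMCs), which are primary mast cells grown from the femurs of C57BL/6J mice. The cells were matured for 6 weeks in RPMI-1640 with 10% serum, 2 mM glutamine, 1 mM nonessential amino acids, interleukin 3 and stem cell factor. For the ionomycin group, 3 samples spent 1 h in Tyrode's buffer with 1 µg/mL ionomycin, a calcium ionophore that makes mast cells degranulate. For the naïve group, 3 samples spent that hour in the buffer alone. The buffer as listed holds salts, glucose, albumin and HEPES and no free amino acids. All 6 samples were then returned to the culture medium for 3 h, so that RNA was taken 4 h after ionomycin was added. The comparison thus asks what ionomycin adds, since the control cells went through the same hour in buffer. The labels do not give the age or number of the mice, or say whether the replicates are separate cultures. The p-values therefore cover only the variation among these 6 samples, part or all of which may be technical.

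In the integrated stress response, kinases such as PERK and GCN2 phosphorylate the translation initiation factor eIF2 when a cell meets endoplasmic reticulum stress or lacks amino acids. Most protein synthesis then slows, while the transcription factor ATF4 is translated more. ATF4, together with C/EBP partners and CHOP, raises genes for amino acid uptake, amino acid synthesis and tRNA charging. The phosphatase subunit GADD34 brings eIF2 back to its unphosphorylated state. Mast cells draw on amino acids to rebuild granules and to secrete cytokines after they have been activated.

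ATF4 and its C/EBP partners are known to bind a composite DNA element in promoters of this pathway. The core letters TGATGNAA were searched on both strands of RefSeq promoter windows, each 300 bases long (250 before to 50 after a transcription start, build GRCm38.p6). Of the 36 genes, 30 had such a window, and in 8 of them a window held the letters. Over all genes with a window the share was 4.51% (1219 of 27025). The matches are printed to show how the element reads in each of these genes, of which 7 were measured and none passed the test below. Each line runs 5′ to 3′ on the strand on which the core reads forward, with the core in capitals.

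Asns, chr6:7693215-7693242, minus strand: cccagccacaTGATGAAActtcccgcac
Chac1, chr2:119351039-119351066, minus strand: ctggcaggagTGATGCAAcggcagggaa
Jdp2, chr12:85599373-85599400, plus strand: tagccggggcTGATGCAAcccgtcccgc
Nupr1, chr7:126625563-126625590, plus strand: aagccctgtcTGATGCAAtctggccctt
Pycr1, chr11:120643834-120643861, minus strand: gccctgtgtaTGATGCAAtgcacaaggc
Slc1a4, chr11:20332700-20332727, plus strand: aggctggagaTGATGCAAcgcaggaggc
Trib3, chr2:152344029-152344056, plus strand: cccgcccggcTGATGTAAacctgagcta
Vldlr, chr19:27216810-27216837, minus strand: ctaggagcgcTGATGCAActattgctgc

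Counted from the start in the direction of the gene, the match opened at position -23 in Asns, -4 in Slc1a4, -110 in Nupr1, -193 in Chac1 and 15 in Trib3. The windows of Aldh18a1 and Ppp1r15a, the genes that passed the test below, do not hold these letters, which says nothing about whether ATF4 binds elsewhere. A second set of letters, TGACGTCA, the palindromic cAMP response element that CREB and ATF factors can bind, was found in 1 of the 30 genes, Ppp1r15a, and in 2.03% of all genes. The whole windows of these genes are given for comparison, with the cAMP response element in capitals.

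Ppp1r15a, chr7:45526219-45526518, minus strand: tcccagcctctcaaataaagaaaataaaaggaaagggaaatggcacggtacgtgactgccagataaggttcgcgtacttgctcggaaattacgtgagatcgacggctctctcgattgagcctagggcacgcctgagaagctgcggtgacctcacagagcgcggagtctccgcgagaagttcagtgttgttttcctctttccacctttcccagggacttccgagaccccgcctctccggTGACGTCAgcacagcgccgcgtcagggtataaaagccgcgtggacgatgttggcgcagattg
Aldh18a1, chr19:40588414-40588713, minus strand: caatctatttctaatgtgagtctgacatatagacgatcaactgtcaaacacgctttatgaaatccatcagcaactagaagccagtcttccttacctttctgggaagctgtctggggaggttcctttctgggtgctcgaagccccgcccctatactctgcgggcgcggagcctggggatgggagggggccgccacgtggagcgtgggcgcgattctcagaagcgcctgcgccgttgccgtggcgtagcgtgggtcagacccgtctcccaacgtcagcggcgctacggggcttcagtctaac

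The arrays of replicate 1 stood apart from the others in both groups, and the genes described here are among those in which they differ. Values are therefore given for each array in the order of replicates 1, 2 and 3. For some genes in which replicate 1 moves the difference by much, the difference without such an array, or its range over all fits, is given. Genes without such values are not thereby stable to replicate 1. The sign of 9 of the 34 differences turned when 1 or both replicate 1 arrays were left out (Atf4, Ddit3, Ddit4, Eif2ak3, Ppp1r15b, Psat1, Shmt2, Slc38a2 and Trib3), and none of these 9 passed with all 6 arrays.

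At 4 h, 2 of the 34 measured genes rose and 0 fell (limma without a block, Benjamini-Hochberg adjusted p under 0.05 over all 30102 genes). These were Aldh18a1, whose enzyme starts proline synthesis from glutamate, and Ppp1r15a, which encodes GADD34. With the replicate number as a block there were 2 as well, against 0.395% of all genes higher and 0.11% lower, but Ppp1r15a no longer passed (adjusted p = 0.0683) and Slc7a1, an arginine and lysine carrier, did (0.0330). Over all genes 0.289% were called higher and 0.0598% lower. The median of the 34 log2 differences was 0.26, against 0.05 over all genes. Of the 34 differences 27 were above 0, and the share of all genes above 0 was not counted. Before adjustment, 9 had p under 0.05 and a higher value and 0 a lower one, against 10.2% and 5.44% of all genes. In 10 genes the groups' arrays did not overlap, all of them higher after ionomycin, where 18.9% of all genes did not overlap in that direction and 7.31% in the other. All 34 genes had a mean signal above the background of chemosensory receptor genes, a log2 level of 6.05 set at the 95th percentile of their means. Of all 30102 genes 18897 did, so the median and shares over all genes include genes below background. The median, the shares before adjustment and those without overlap were not computed for genes above background alone.

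**Figure D1:**
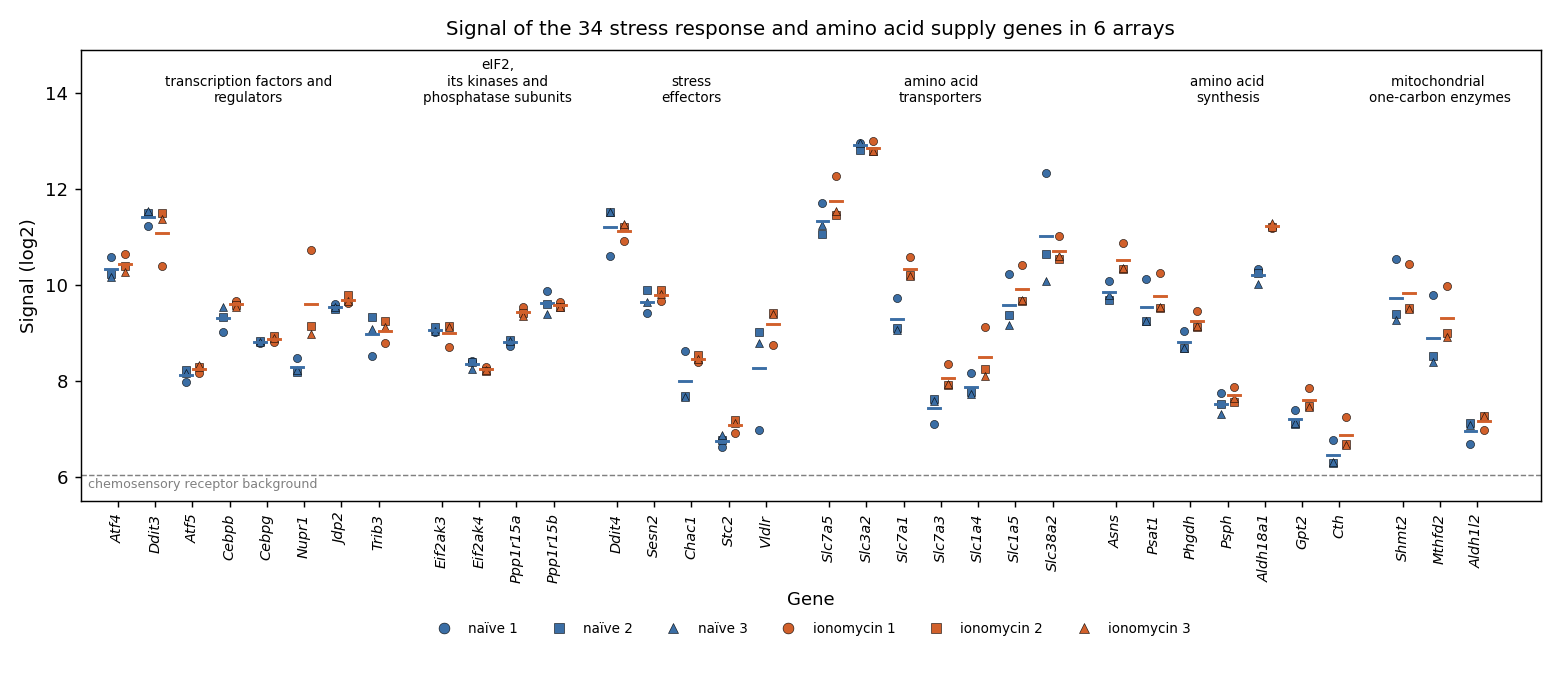
Log2 signal (y axis) of each of the 34 genes (x axis, grouped by role) in the 3 naïve (blue) and 3 ionomycin (orange) arrays; marker shapes give the replicate number, short bars the group means and the dashed line the background of 6.05. Aldh18a1 and Ppp1r15a separate the groups with little spread, whereas Vldlr, Slc38a2 and Mthfd2 differ more between arrays of a group than between groups.

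In amino acid synthesis 1 of 7 measured genes rose and 6 did not pass, and all 7 differences were above 0 (median log2 difference 0.41). Aldh18a1 had log2 signals of 10.33, 10.26 and 10.02 in naïve replicates 1, 2 and 3 and of 11.18, 11.20 and 11.30 in the ionomycin replicates. Every ionomycin array was above every naïve array by more than the spread within either group. The rise was 2.03-fold (log2 difference 1.02 ± 0.09 SE, 95% interval 0.80 to 1.25, limma adjusted p = 0.0176). It passed with the replicate number as a block as well (limma adjusted p = 0.0456). With 5 arrays it passed without naïve replicate 1 (adjusted p = 0.0208) and not without naïve replicate 2 (0.108) or 3 (0.0817), or ionomycin replicate 1 (0.0575), 2 (0.133) or 3 (0.120), while the difference stayed between 0.93 and 1.09 in these fits.

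Asns, asparagine synthetase, had signals of 10.07, 9.68 and 9.79 in naïve and 10.86, 10.32 and 10.34 in ionomycin arrays. The groups did not overlap, but the array of replicate 1 was the highest in each of them. The difference of 0.66 ± 0.18 did not pass (limma adjusted p = 0.208, and 0.0511 with the replicate block). Phgdh, which begins serine synthesis from a glycolytic intermediate, behaved alike, with naïve signals of 9.04, 8.69 and 8.68 and ionomycin signals of 9.45, 9.12 and 9.14. Its differences at replicate numbers 1, 2 and 3 were 0.41, 0.44 and 0.45, yet it did not pass (0.43 ± 0.14, limma adjusted p = 0.251, and 0.0602 with the block). The other serine pathway enzymes were closer to 0, with Psat1 at 0.23 ± 0.31 and Psph at 0.17 ± 0.14 (limma adjusted p = 0.714 and 0.543). Over all fits the difference of Psat1 ran from -0.01 to 0.52. Gpt2, a mitochondrial alanine aminotransferase, was at 0.38 ± 0.14 and Cth, which makes cysteine from cystathionine, at 0.41 ± 0.20 (limma adjusted p = 0.282 and 0.357).

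**Figure D2:**
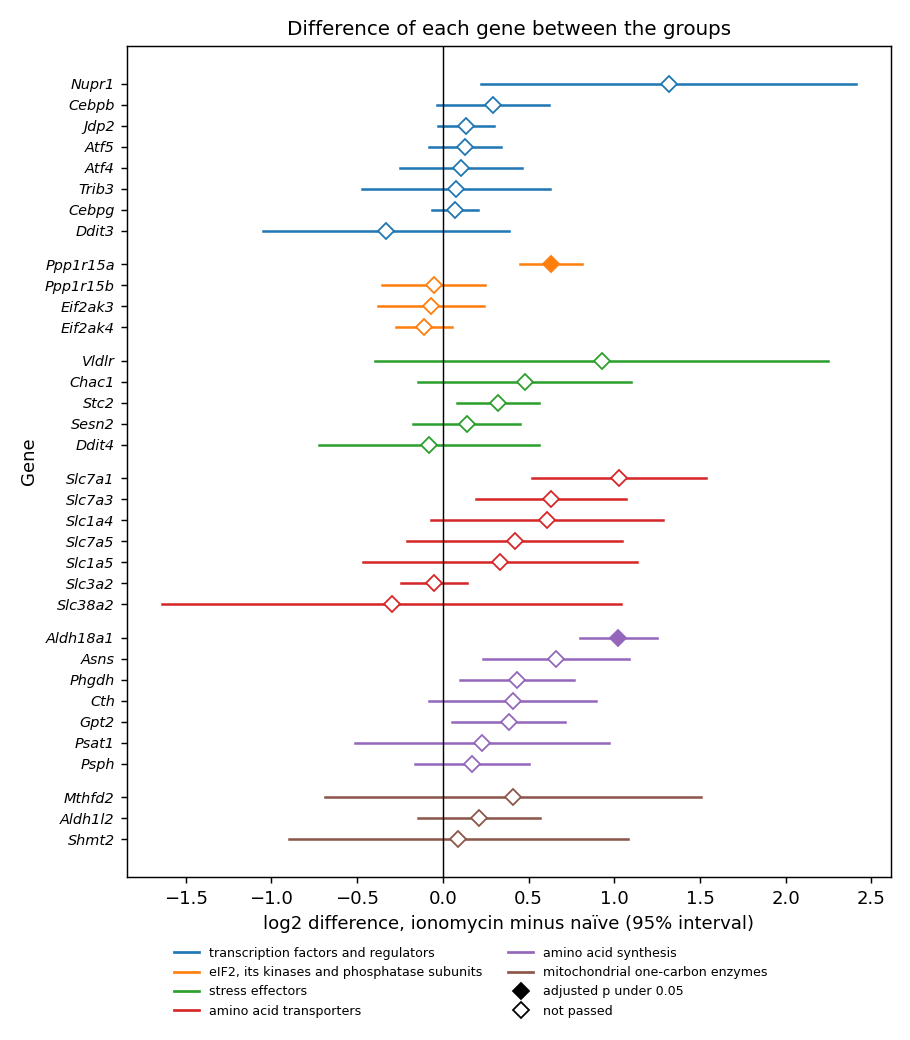
Log2 difference, ionomycin minus naïve, of each gene (diamonds) with its 95% interval from limma (lines), coloured by role; filled diamonds have an adjusted p under 0.05. Aldh18a1 at 1.02 and Ppp1r15a at 0.63 are the filled ones, with the narrowest intervals among the genes above 0.6.

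Among eIF2 kinases and phosphatase subunits, GADD34 rose and its constitutive relative did not pass. Ppp1r15a had signals of 8.72, 8.85 and 8.84 in naïve and 9.54, 9.42 and 9.35 in ionomycin arrays, with no overlap. It rose 1.55-fold (log2 difference 0.63 ± 0.07, limma adjusted p = 0.0417). It did not pass with the replicate block (adjusted p = 0.0683), after centring of arrays (0.0637), with trend and robust settings (0.0706) or with all rows tested (0.0542). Nor did it pass with 5 arrays, where the adjusted p was 0.0580, 0.191 and 0.129 without naïve replicates 1, 2 and 3 and 0.0903, 0.250 and 0.148 without ionomycin replicates 1, 2 and 3. The difference itself stayed between 0.54 and 0.68 in all settings tried. Ppp1r15b, the subunit that dephosphorylates eIF2 in unstressed cells, was at -0.05 ± 0.13 (limma adjusted p = 0.837, 95% interval -0.36 to 0.25). Eif2ak4, which encodes GCN2, the kinase that senses uncharged tRNA, had signals of 8.42, 8.39 and 8.24 in naïve and 8.28, 8.22 and 8.23 in ionomycin arrays. These overlap, and its difference of -0.11 ± 0.07 did not pass (limma adjusted p = 0.441). Eif2ak3, which encodes PERK of the endoplasmic reticulum, was at -0.07 ± 0.13 (limma adjusted p = 0.793).

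The transcription factors of the response gave no call. Atf4 itself had signals of 10.59, 10.23 and 10.17 in naïve and 10.65, 10.39 and 10.27 in ionomycin arrays. The difference of 0.10 ± 0.15 (limma adjusted p = 0.728, 95% interval -0.25 to 0.46) concerns its mRNA; translation, through which ATF4 is mainly controlled, was not measured. Ddit3, which encodes CHOP, had signals of 11.22, 11.50 and 11.54 in naïve and 10.38, 11.49 and 11.38 in ionomycin arrays. Ionomycin replicate 1 lay 0.83 below the lowest of the other 5 arrays, and the difference of -0.33 ± 0.30 did not pass (limma adjusted p = 0.578). Without that array it was 0.02, so that its sign turned, and without both replicate 1 arrays -0.08. Nupr1, a small stress-inducible chromatin protein, had the largest difference of the 34 genes. Its signals were 8.47, 8.19 and 8.22 in naïve and 10.72, 9.14 and 8.97 in ionomycin arrays. The groups did not overlap, but ionomycin replicate 1 stood well above the other 2, and the difference of 1.32 ± 0.45 did not pass (limma adjusted p = 0.275). Without both replicate 1 arrays it was 0.85 and passed (limma adjusted p = 0.0114). Those arrays were set apart after their values were seen, so that pass is no independent support.

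The remaining regulators differed by less. Cebpb, a C/EBP factor of inflammatory and stress genes, was at 0.29 ± 0.13, and Jdp2, an AP-1 repressor, at 0.13 ± 0.07 (limma adjusted p = 0.340 and 0.365). Atf5, an ATF4 relative that is translated under stress, was at 0.13 ± 0.09, and Cebpg, a dimer partner of ATF4, at 0.07 ± 0.06 (adjusted p = 0.473 and 0.532). Trib3, a pseudokinase that restrains ATF4 and CHOP, was at 0.08 ± 0.23 (limma adjusted p = 0.876).

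Among amino acid transporters, 0 of 7 passed, and Slc7a1 had the largest difference, with all arrays and without both replicate 1 arrays. Slc7a1, the arginine and lysine carrier CAT-1, had signals of 9.73, 9.09 and 9.06 in naïve and 10.58, 10.20 and 10.19 in ionomycin arrays. The groups did not overlap, and replicate 1 was highest in both. The 2.04-fold difference (log2 1.03 ± 0.21) did not pass (limma adjusted p = 0.129) but did with the replicate block (1.03 ± 0.08, adjusted p = 0.0330). Its differences at the 3 replicate numbers were 0.85, 1.10 and 1.13. It passed without naïve replicate 1 (adjusted p = 0.0391) and in none of the other 5 fits with 1 array left out. Slc7a3, the related carrier CAT-3, had signals of 7.10, 7.63 and 7.58 in naïve and 8.35, 7.91 and 7.95 in ionomycin arrays. Its groups did not overlap either, but replicate 1 was lowest among the naïve and highest among the ionomycin arrays, and the difference of 0.63 ± 0.18 did not pass (limma adjusted p = 0.223). Without both replicate 1 arrays it was 0.32, below the 0.43 of Slc1a4 and the 0.40 of Slc1a5.

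The carriers of neutral amino acids were spread more widely. Slc1a4 (ASCT1) was at 0.61 ± 0.28, Slc1a5 (ASCT2, a glutamine carrier) at 0.33 ± 0.33 and Slc7a5 (the leucine carrier LAT1) at 0.42 ± 0.26, none of which passed (limma adjusted p = 0.339, 0.620 and 0.438). Over all fits the difference of Slc1a5 ran from 0.08 to 0.65. Slc3a2, the heavy chain that carries LAT1 to the membrane, was at -0.05 ± 0.08 (95% interval -0.25 to 0.14). Slc38a2 (SNAT2), which is known to be induced when amino acids are short, had signals of 12.32, 10.64 and 10.08 in naïve and 11.01, 10.53 and 10.59 in ionomycin arrays. Naïve replicate 1 lay 1.31 above the highest of the others, and the difference of -0.30 ± 0.55 did not pass (limma adjusted p = 0.795). Its sign rested on that array, since the value was 0.35 without it.

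**Figure D3:**
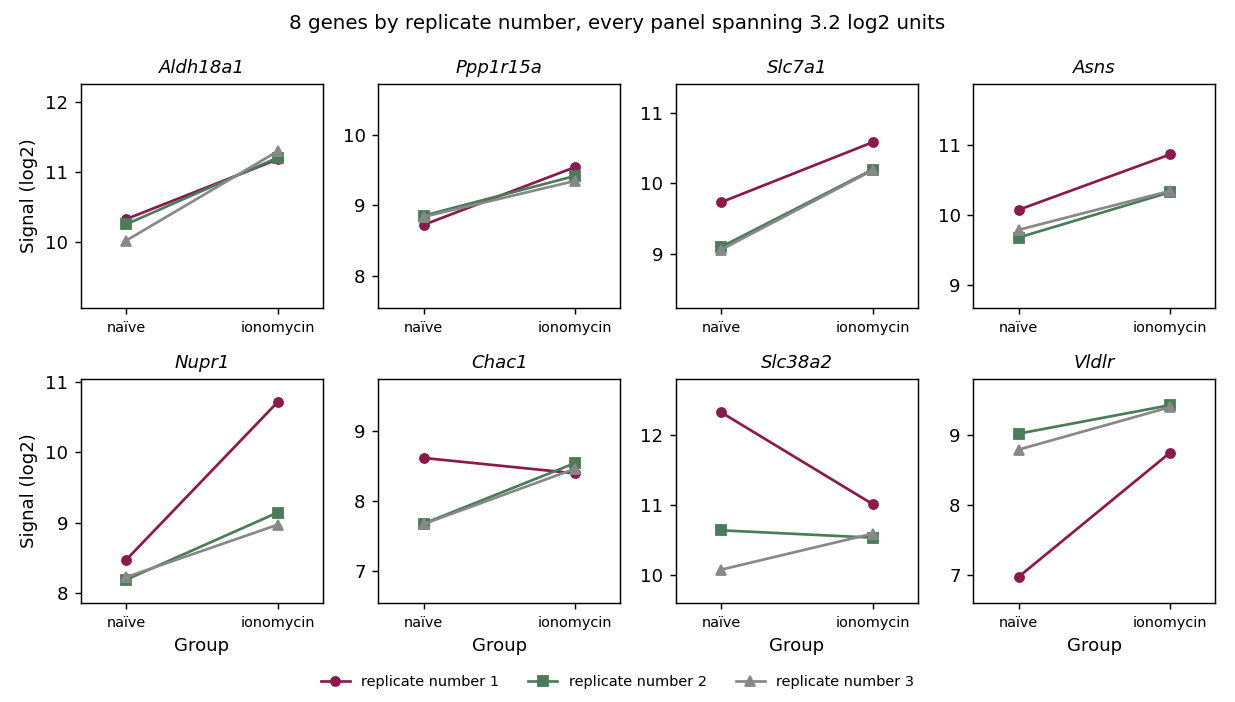
Log2 signal (y axis) of 8 genes in naïve and ionomycin arrays (x axis), with a line for each replicate number. The 3 lines of Aldh18a1, Ppp1r15a, Slc7a1 and Asns all rise; in Chac1 and Slc38a2 the line of replicate 1 runs down, by 0.22 and 1.31, and in Nupr1 and Vldlr it rises more steeply than the other lines.

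Of the 5 stress effectors, 0 passed. Chac1, which degrades glutathione and is a sensitive readout of ATF4, had signals of 8.61, 7.68 and 7.67 in naïve and 8.40, 8.54 and 8.46 in ionomycin arrays. Naïve replicate 1 lay at the level of the ionomycin arrays and the other 2 naïve arrays well below it. Its difference was 0.48 ± 0.26 (limma adjusted p = 0.385), and 0.79 without naïve replicate 1, where it passed (adjusted p = 0.0208). It passed in no other fit with 1 array left out, where the limma adjusted p reached 0.636. Naïve replicate 1 is the array seen to deviate, so the pass without it is no independent support. Vldlr, a lipoprotein receptor, had signals of 6.98, 9.02 and 8.79 in naïve and 8.75, 9.42 and 9.40 in ionomycin arrays. Naïve replicate 1 lay 1.77 below the lowest of the other arrays, and the difference of 0.93 ± 0.55 (limma adjusted p = 0.417) was 0.28 without that array. Stc2, the secreted protein stanniocalcin-2, was at 0.32 ± 0.10 without overlap between groups (limma adjusted p = 0.242). The inhibitors of mTORC1, Ddit4 (REDD1) and Sesn2 (a leucine sensor), were at -0.08 ± 0.27 and 0.14 ± 0.13 (limma adjusted p = 0.883 and 0.595).

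The 3 enzymes of mitochondrial folate metabolism did not pass. Mthfd2, which makes formyl-tetrahydrofolate there, had signals of 9.79, 8.51 and 8.38 in naïve and 9.99, 9.01 and 8.92 in ionomycin arrays. Both replicate 1 arrays were more than 0.9 above the rest of their group, a larger step than that between the groups, and the difference of 0.41 ± 0.45 did not pass (limma adjusted p = 0.656). It was 0.86 without naïve replicate 1 and 0.07 without ionomycin replicate 1, and without both it was 0.52 and passed (limma adjusted p = 0.0322). Leaving out both arrays was a choice made after they were seen to deviate, so that pass is no independent support. Aldh1l2, which oxidises formyl-tetrahydrofolate, had signals of 6.68, 7.12 and 7.09 in naïve and 6.97, 7.28 and 7.27 in ionomycin arrays, with the replicate 1 arrays lowest (0.21 ± 0.15, limma adjusted p = 0.484, and a difference of 0.07 without naïve replicate 1). Shmt2, the serine hydroxymethyltransferase that feeds this pathway, was at 0.09 ± 0.41 (limma adjusted p = 0.917). With the replicate block it was at 0.09 ± 0.08 and did not pass either (limma adjusted p = 0.501). Over all fits its difference ran from -0.22 to 0.49.

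The genes of this response were among those that set the replicate 1 arrays apart. In 18 of the 34 genes replicate 1 was the highest array of both groups, against 18.2% of all genes, and in 10 it was the lowest of both, against 34.1%. All 34 genes were above background, against 18897 of all 30102, and the shares among genes above background were not computed. The replicate 1 arrays also had the lowest median of all rows in their group (5.88 in naïve, 5.96 in ionomycin). The replicate 1 array exceeded the mean of the other 2 by 1.34 in naïve and 1.02 in ionomycin for Mthfd2, by 1.21 and 0.93 for Shmt2, by 0.96 and 0.75 for Slc1a5 and by 0.88 and 0.72 for Psat1. In the other direction it was at -1.93 and -0.66 for Vldlr and at -0.69 and -0.39 for Trib3. Of the 7 transporters 6 and of the 7 synthesis enzymes 6 were highest there in both groups. Of the 8 transcription factors and regulators 4 were lowest there in both groups (Ddit3, Atf5, Cebpg and Trib3). Another 2 of them, Atf4 and Nupr1, were highest. Of the 5 stress effectors 4 were lowest there in both groups (Ddit4, Sesn2, Stc2 and Vldlr) and 0 highest. The median SD within a group was 0.24 (naïve) and 0.21 (ionomycin) for the 34 genes, against 0.11 and 0.09 over all genes. The values over all genes include genes below background. Of the 32 genes that did not pass, 13 had a 95% interval that includes a 2-fold difference in the fit without a block. Intervals with the replicate block were not counted. That block lowered the SE of Mthfd2 from 0.45 to 0.09 and that of Slc1a5 from 0.33 to 0.08. It raised the SE of others, such as Slc7a3 (from 0.18 to 0.21).

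**Figure D4:**
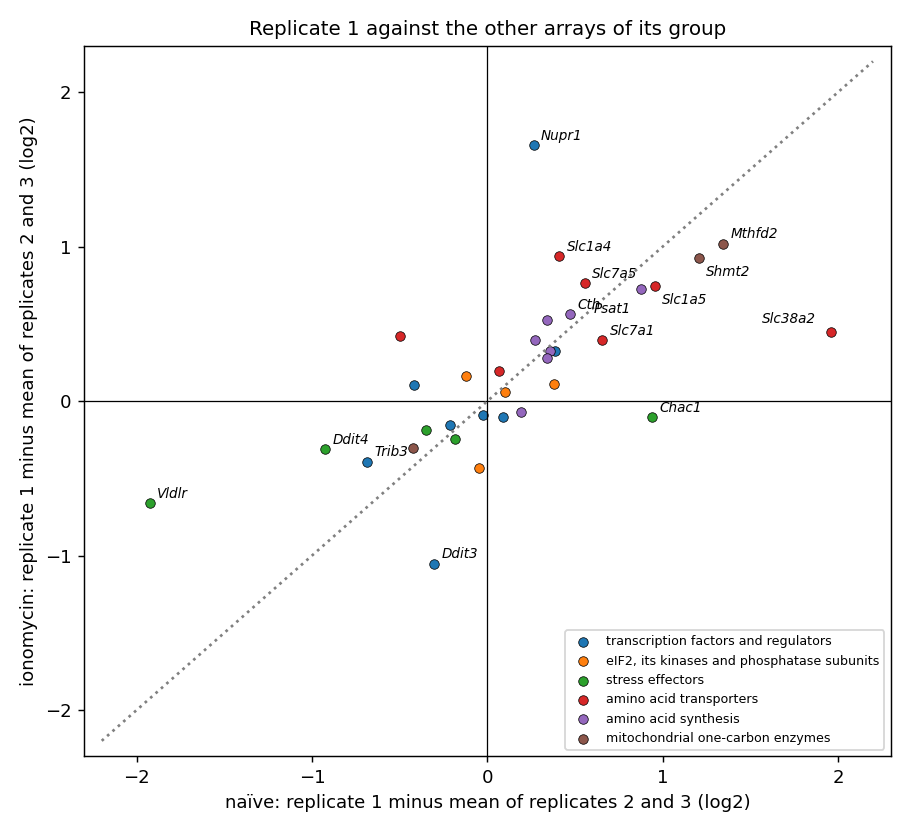
For each gene, replicate 1 minus the mean of replicates 2 and 3 in naïve (x axis) and ionomycin arrays (y axis), log2, coloured by role; the dotted line marks equal values. Points in the upper right, such as Mthfd2, Shmt2 and Psat1, were high in both replicate 1 arrays, and Vldlr, Ddit4 and Trib3 in the lower left were low in both.

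Markers of cell types were compared with this pattern. All 9 measured mast cell markers were above background, and their mean signal was between 12.67 and 12.71 in naïve and between 12.64 and 12.71 in ionomycin arrays. That mean covers single markers on both sides of 0, none of which passed: Hdc, which makes histamine, was at 1.04 ± 0.25, Ms4a2, a chain of the IgE receptor, at -0.62 ± 0.14, the growth factor receptor gene Kit at -0.39 ± 0.11 and Gata2 at -0.21 ± 0.07 (limma adjusted p = 0.180, 0.163, 0.222 and 0.240). The mean of 4 basophil markers, of which 3 were above background, ran from 8.53 to 9.32 in naïve and from 8.49 to 9.35 in ionomycin arrays, with the replicate 1 array highest in both groups. The basophil protease genes Mcpt8 (10.36 and 10.60 in the replicate 1 arrays, 9.03 to 9.20 in the others) and Prss34 (10.35 and 10.70, against 8.61 to 8.94) were both higher in the replicate 1 arrays. The other markers of this list did not follow: Cd200r3 was at 11.41, 11.32 and 11.22 in naïve and 11.01, 11.01 and 11.06 in ionomycin arrays, and Itga2 was below background. The mean of 6 macrophage markers, 5 of them above background, ran from 7.02 to 7.44 in naïve and from 7.08 to 7.55 in ionomycin arrays. Some low lists differed between the groups instead: the array means of 3 eosinophil markers were 6.24 to 6.26 in naïve and 6.50 to 6.58 in ionomycin arrays, those of 3 fibroblast markers 7.25 to 7.40 and 7.45 to 7.62, and those of 2 B cell markers 5.26 to 5.31 and 5.35 to 5.50. Above background were 2 of the 3 eosinophil, all 3 fibroblast and 1 of the 2 B cell markers, without Prg2 and Ms4a1. Siglecf, at 0.56 ± 0.08 (limma adjusted p = 0.0718), was farthest from 0 among the eosinophil markers, with Epx and Prg2 both at 0.14. The 6 neutrophil, 4 T cell and 3 erythroid and megakaryocyte markers overlapped between the groups in their means, the last 2 lists only barely. The highest naïve and lowest ionomycin means were 6.0974 and 6.0959 for T cell markers. For erythroid and megakaryocyte markers they were 8.3974 and 8.3968. The arrays were not centred for these means. The part of these cells in the differences of single genes was not tested. In bulk RNA, fewer cells of a type cannot be told apart from less RNA per cell.

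A block of 2 levels set replicate 1 against the other 2 numbers. The labels give no such grouping, and it sets apart arrays seen to deviate in these same values. Its counts are therefore no independent support. With it, 10 of the 34 genes were called higher and 0 lower (limma adjusted p under 0.05), against 2.25% higher and 2.47% lower of all genes. They were Ppp1r15a, Stc2, Slc7a5, Slc7a1, Slc1a4, Asns, Phgdh, Aldh18a1, Gpt2 and Cth, of which 5 are synthesis enzymes and 3 transporters. The same limit holds for the fit without both replicate 1 arrays, which leaves 2 arrays per group. There 10 were called higher and 0 lower as well, against 1.41% and 1.43% of all genes. Nupr1, Chac1 and Mthfd2 now stood in place of Stc2, Slc7a5 and Gpt2. Array weights gave 9 of the 34 genes higher and 0 lower, against 7.44% and 5.49% of all genes. Calls were 2 and 0 with quantile normalization (0.243% and 0.0831% of all genes), with dim genes left out (0.476% and 0.0847%) and with the mean of a gene's rows (0.282% and 0.0532%). They were 1 and 0, Aldh18a1 in each, after centring (0.229% and 0.106%), with trend and robust settings (0.259% and 0.0299%) and with all rows tested (0.161% and 0.0228%). Without naïve replicate 1 they were 3 and 0 (0.316% and 0.183%), the 3 being Chac1, Slc7a1 and Aldh18a1. In the other 5 fits with 1 array left out 0 were called in limma, against 0.0432% higher of all genes without naïve replicate 2, 0.0266% higher and 0.00332% lower without naïve replicate 3, and 0.116%, 0.00332% and 0.0233% higher without ionomycin replicates 1, 2 and 3. Of the 34 genes, 23 were higher after ionomycin at all 3 replicate numbers and 2 were lower at all 3. Over all genes those shares were 35.8% and 16.8%.

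Related genes outside the 34 gave few calls. Of 8 ATF and C/EBP relatives, Atf3, a repressor and ATF4 target, rose by 1.52 ± 0.18 (adjusted p of 0.0395 in limma, 0.0653 under the replicate block), and 7 did not pass. Of 12 further reported targets of ATF4 or CHOP, Atf3 was again the only call, and the median of this list was 0.27, like that of the 34 genes. Of 21 other enzymes of amino acid and folate metabolism, Bcat1, the cytosolic transaminase of branched-chain amino acids, rose by 0.88 ± 0.10 (adjusted p of 0.0388 in limma, 0.0663 under that block). Its signals were 7.19, 7.40 and 7.44 in naïve and 8.36, 8.10 and 8.20 in ionomycin arrays, with no overlap. The other 20 of this list did not pass, and its median was -0.004. Neither Atf3 nor Bcat1 passed after centring of arrays.

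None of 20 cytosolic tRNA synthetases passed in limma. Before adjustment 1 was past 0.05 upwards and 0 downwards (10.2% and 5.44% of all genes), and the median was 0.05. The smallest p-values were those of Rars (0.13 ± 0.05) and Wars (0.17 ± 0.07), at adjusted p = 0.320 and 0.329. Of 25 other amino acid transporters 0 passed in limma, and before adjustment 5 were past 0.05 upwards and 3 downwards (10.2% and 5.44% of all genes). Slc15a4, a lysosomal histidine and peptide carrier, was at -0.46 ± 0.06 (limma adjusted p = 0.0510), and Slc38a1, a glutamine carrier, at 0.36 ± 0.06 (adjusted p = 0.0943). Of 12 other genes of eIF2, its kinases, eIF2B and their regulators 0 passed in limma. Before adjustment 0 were past 0.05 upwards and 4 downwards (10.2% and 5.44% of all genes), and the median was -0.16. The 4 were Oma1, Eif2ak1, Dele1 and Impact, of which Eif2ak1 alone encodes an eIF2 kinase and none eIF2 or eIF2B. Among them Oma1, the mitochondrial protease that relays stress to this pathway, was at -0.42 ± 0.08, and Eif2ak1, the kinase HRI, at -0.40 ± 0.10 (limma adjusted p = 0.123 and 0.189).

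In the amino acid sensing branch of mTORC1, 0 of 28 genes passed in limma. Before adjustment 1 was past 0.05 upwards and 6 downwards, against 10.2% and 5.44% of all genes. The median was -0.10, and 22 of the 28 were below 0, a share that was not counted over all genes. Nprl2, part of the GATOR1 brake on mTORC1, was at -0.55 ± 0.09 and Lamtor1, part of the anchor of mTORC1 at the lysosome, at -0.19 ± 0.07 (limma adjusted p = 0.0816 and 0.275). The ATF6 and XBP1 arms of the unfolded protein response, which share the endoplasmic reticulum trigger with PERK, had 0 of 25 genes past the threshold in limma. Before adjustment 1 was past 0.05 in each direction, against the same shares of all genes, and the median was -0.01. The chaperone gene Hspa5 was at 0.17 ± 0.06 and Derl2, a factor of protein disposal, at -0.15 ± 0.05 (limma adjusted p = 0.276 and 0.286). Centring of arrays lowered every difference by 0.07. That turned the sign of the median of all genes (from 0.05 to -0.01) and of the tRNA synthetases (to -0.02). It turned the sign of none of the 34 genes.

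**Figure D5:**
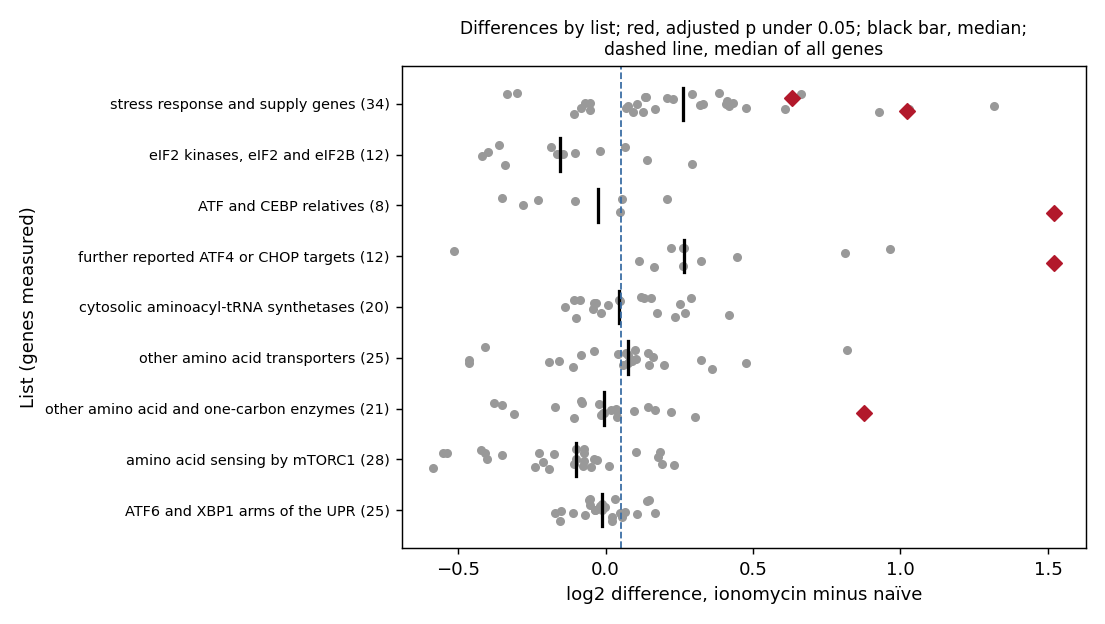
Log2 difference, ionomycin minus naïve (x axis), of every measured gene (points, spread vertically for legibility) in the 34 genes and 8 related lists (y axis, number measured; UPR, unfolded protein response); red diamonds have a limma adjusted p under 0.05, black bars are list medians and the dashed line is the median of all genes, 0.05. The 34 genes and the further ATF4 or CHOP targets have medians of 0.26 and 0.27, and the other lists lie between -0.16 and 0.08.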

How the data were processed

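Total RNA of 6 BMMC samples, 3 per group by title, was measured on whole-transcript Affymetrix arrays. The authors deposited log2 signals, made with the R package oligo per the submitters' processing notes. Its version, the normalization and the build: not given in the sources used here. The range of the values (3.01 to 14.6) fits a log2 scale, and how arrays were scaled stays unknown; a scaling step could move small differences. Of 65770 rows, 30439 have 1 annotated symbol, 2146 several and 33185 none. Where a gene had several rows, the one with the highest 6-array mean was kept; no gene of the 34 had more than 1. RefSeq (GRCm38.p6) gave 827 rows a current symbol by Entrez ID. The array medians ran from 5.88 to 6.03 and Pearson's r between arrays, across genes, from 0.980 to 0.998. The number of arrays limits the precision.

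Groups were compared in limma 3.58.1 (R 4.3.3) over all 30102 genes without a block, two-sided, with Benjamini-Hochberg adjustment and a threshold of 0.05; every adjusted p is from limma, and each ± beside a difference is its moderated SE. The fit was run on simulated data in which all arrays were drawn independently. That run does not cover the correlation of same-numbered arrays given below. Signals are given for every gene that passed with or without the block and for the 2 largest differences of each role; the signals of Atf4, Phgdh and Slc38a2 were added after their values were seen. From each related list the largest calls are named, or else the 2 smallest p-values. The genes and lists were chosen with earlier results of these data known. Replicate numbers are shared between groups in the titles, and deviations from the group means of same-numbered arrays correlated across genes (0.711, 0.476 and 0.469), so the fit with the replicate number as a block is given where it changes a call. The crossed pairs of numbers 2 and 3 correlated as well (0.524 and 0.481). Promoter windows are RefSeq sequences of build GRCm38.p6.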

Additional observations from a re-analysis of the deposited data

How the results depend on the processing

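Leaving out 1 array gave 0 to 3 of the 34 genes higher (0 in every such fit except the one without naïve replicate 1), 0 to 2 genes of the related lists higher, and 1 to 95 genes higher and 0 to 55 lower over all genes. Higher calls among the 34 genes numbered 2 with the replicate block, quantile normalization, the filter on dim genes and the mean of a gene's rows, 1 after centring, with trend and robust settings or with all rows tested, 9 with array weights, and 10 with the block of 2 levels or without both replicate 1 arrays; 0 were lower in any setting. With the replicate block 33 genes of all were lower and 0 of the related lists higher. After centring 32 of all genes were lower, and in the related lists 0 were higher and 1 lower. With trend and robust settings 9 of all genes were lower. The block of 2 levels gave 677 genes higher and 744 lower (5 and 6 in the related lists), array weights 2240 and 1654 (12 and 13), and the fit without both replicate 1 arrays 423 and 429 (4 lower in the related lists). Array weights were estimated from the 6 arrays themselves. The block of 2 levels and the fit without both replicate 1 arrays set apart arrays seen to deviate in these data. The cause of the higher counts was not tested. Apart from the calls named above, the block of all replicate numbers changed no call among the 34 genes or the related lists. The number of arrays and the spread of replicate 1 limit what the fit without a block can detect for genes such as Slc38a2, Vldlr and Shmt2. With the replicate block their SE was 0.36, 0.28 and 0.08, against 0.55, 0.55 and 0.41 without it. None of them passed in either fit. The wide interval of Shmt2 thus belongs to the fit that leaves out the replicate number.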
